A study of Saccharomyces cerevisiae with 8 samples.

Results

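The general stress and stationary phase genes of budding yeast are described here over a time course in TFM. The set comprised 32 genes, chosen by name as genes of the Msn2/Msn4 stress response or of stationary phase, among 5449 genes measured. All 32 were found by symbol in the array's probe annotation, and each had 1 probe set. The set holds 5 regulators, 8 small or secreted stress proteins, 7 metabolic enzymes, 5 proteins of protein and RNA turnover, 3 organelle proteins and 4 genes named for growth in stationary phase.

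The cells were Saccharomyces cerevisiae BY4741, a haploid MATa laboratory strain, wild type for the study but lacking URA3, LEU2, MET17 and part of HIS3. All cultures were grown to saturation at 30 °C in YPD, a rich glucose medium, and all groups including the controls received 2% isopropanol, the solvent of TFM. The controls (n = 2 RNA samples) stand for time zero and had solvent alone. The treated groups had 0.05 mM TFM for 1 h (n = 2), 2 h (n = 2) or 4 h (n = 1, 1 RNA sample hybridised to 2 technical arrays). TFM is given only as an abbreviation in the labels, and commonly stands for a nitrophenol lampricide that uncouples mitochondrial respiration from ATP synthesis. Cultures with solvent alone were not sampled at the later times, so that time in the flask and exposure to TFM cannot be told apart in any result. In these bulk samples, fewer cells expressing a gene and less RNA per cell cannot be told apart either.

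When yeast cells meet stress or run out of glucose, protein kinase A and TORC1 signalling falls. The zinc-finger factors Msn2 and Msn4 then enter the nucleus and bind stress response elements in the promoters of a broad set of protective genes. The kinase Rim15, which the same signalling holds back, acts through the factor Gis1 and through Msn2 and Msn4 to bring cells into quiescence. Saturated cultures have used up their glucose, and many genes of this programme are highly expressed in such cells before any treatment.

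The values are log2 probe set signals, so a difference of 1 is a 2-fold change. Levels of different probe sets are not compared in absolute terms, because probes differ in brightness. Changes were tested with limma over all 5449 genes, with p-values adjusted by the Benjamini-Hochberg method and a threshold of 0.05. The labels call the replicates biological without naming separate cultures, so that p-values measure the spread between these samples only. The 4 h sample had no biological replicate, and its spread was taken to be that of the other groups.

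Against the strain label, URA3, LEU2 and MET17 lay at percentiles 0.50, 1.24 and 0.86 of all probe sets, while HIS3, of which the strain keeps a part, lay at 74.75. The MATa genes STE2, MFA1 and MFA2 lay between percentiles 72.89 and 87.72, and STE6 and BAR1 at 34.4 and 36.31. Of the MATalpha genes, the pheromone genes lay at percentiles 2.46 and 3.06, and STE3 at 13.21. SAG1, the alpha agglutinin gene, was at 63.18. Array medians ranged from 11.03 to 11.11. The root mean square SD between replicates over the 32 genes was 0.18 in the controls, 0.14 at 1 h and 0.069 at 2 h, against 0.16, 0.17 and 0.085 over all genes. Control replicate 1 stood apart in RNA measures. It had the lowest 5th percentile, 7.91, and the largest mean gap of 3′ over 5′ probe sets of control transcripts, 1.55 against 1.25 to 1.36 on the others. The 5th percentile was highest at 1 h, 8.39 and 8.40, against 7.91 to 8.20 on the other arrays. The signal of the 17 probe sets for ribosomal RNA moved with time. Its median was 9.76 and 9.97 at time zero, 10.47 and 11.77 after 1 h, 11.43 and 13.03 after 2 h, and 12.18 and 12.08 on the paired arrays of 4 h. The part of these measures in the results was not tested.

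In most of the stress programme no change passed the test, and a few genes changed at 4 h, in both directions. At 4 h, 4 of the 32 genes (12.5%) passed the test against the controls, while 4.46% of all genes did. MSN4, the stress-inducible one of the paired factors, rose 1.66-fold. OM45, SPG1 and SIP18 fell to 0.599, 0.569 and 0.561 of the control level. Among all genes 0.734% were called higher and 3.73% lower at 4 h. At 1 h limma called 0 of the 32 genes, while 4.99% of all genes were called. At an unadjusted p under 0.05 there were 9 (28.1%), against 27.5% of all genes. At 2 h it called 0 of 32, while 0.11% of all genes were called. Here 5 (15.6%) had an unadjusted p under 0.05, against 12.3% of all genes. The F test over the 3 times called MSN4, OM45, SIP18 and SPG1, which is 12.5% of the set against 6.51% of all genes. None of these F test calls held without either 2 h replicate, and the count over all genes fell too. At 1 h the counts of the set and of all genes both rose without control replicate 2 and without 1 h replicate 1. Each such fit leaves 1 sample in a group. The 4 calls at 4 h rest on few samples. The adjusted p-values in limma were 0.0713 (MSN4), 0.0687 (OM45), 0.0905 (SIP18) and 0.079 (SPG1) without control replicate 1, and 0.0964, 0.0964, 0.103 and 0.103 when only the controls and the 4 h sample were fitted. Without either 2 h replicate they were 0.0802, 0.0723, 0.0802 and 0.0874. Without control replicate 2 only SPG1 of the 4 passed (0.048), while GRE1 was called in addition.

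**Figure D1:**
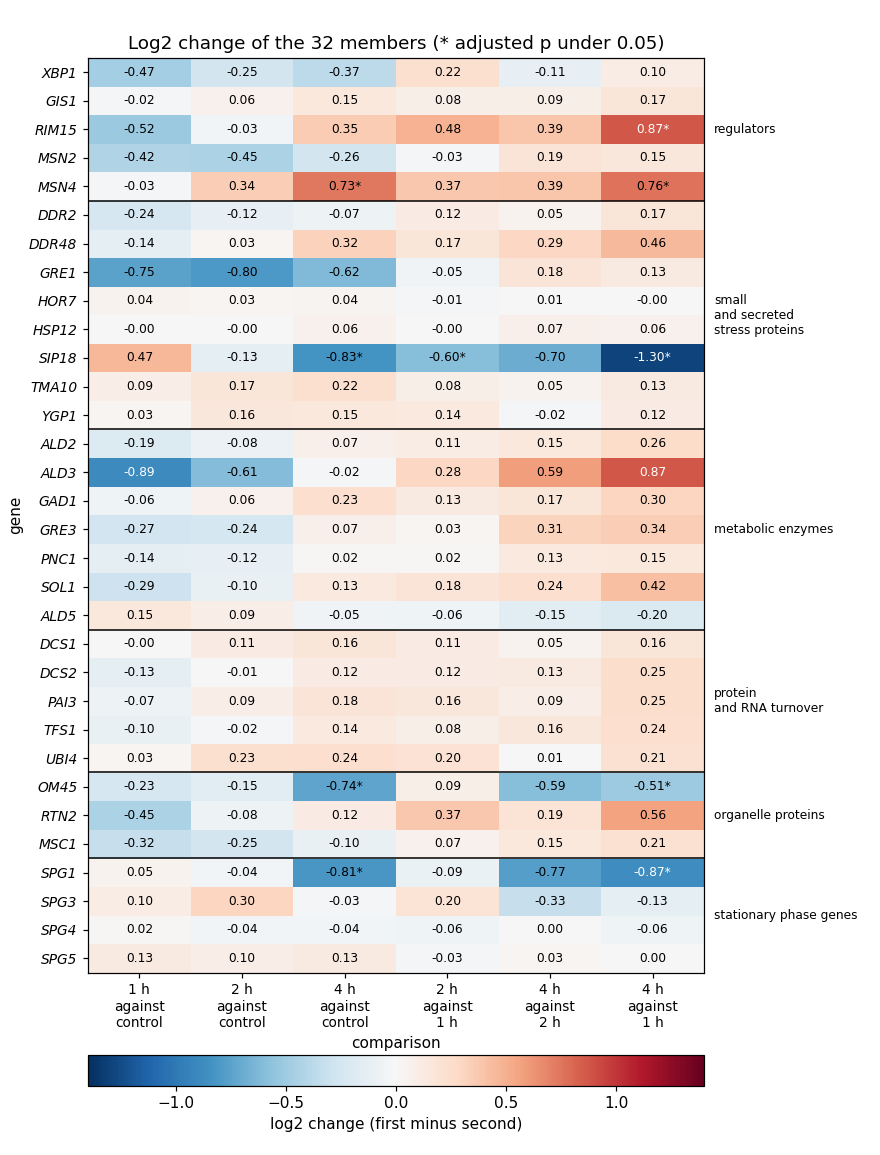
Log2 change of each of the 32 genes in 6 comparisons, with genes in rows by role, comparisons in columns, red for higher and blue for lower in the first-named group, and an asterisk where the adjusted p was under 0.05. Asterisks stand on 4 genes at 4 h against control, on SIP18 alone at 2 h against 1 h, and on 5 genes at 4 h against 1 h.

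Among the regulators, MSN4 rose. Its values were 10.82 and 10.86 at time zero, 10.85 and 10.77 after 1 h, 11.15 and 11.21 after 2 h, and 11.62 and 11.52 on the paired arrays of 4 h. Both 1 h values lay within 0.1 of the controls, the 2 h values were above all of these, and the 4 h arrays were highest, with no overlap of 2 h or 4 h with any other time. The log2 change was -0.03 (SE 0.08, adjusted p = 0.84) at 1 h, 0.34 (SE 0.08, adjusted p = 0.186) at 2 h and 0.73 (SE 0.09, adjusted p = 0.0178) at 4 h. Between 4 h and 1 h MSN4 rose by 0.76 (SE 0.09, adjusted p = 0.0118), a 1.7-fold difference. The 2 h change did not pass in limma although its unadjusted p was 0.00366.

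MSN2 encodes the partner factor, whose mRNA is usually the more constant of the pair. MSN2 values were 11.73 and 11.43 at time zero, 11.10 and 11.23 after 1 h, 11.16 and 11.11 after 2 h, and 11.34 and 11.30 on the paired arrays of 4 h. Every treated array lay below both controls, but the controls were 0.30 apart. The log2 changes of -0.42 (SE 0.12, adjusted p = 0.0834), -0.45 (SE 0.12, adjusted p = 0.212) and -0.26 (SE 0.14, adjusted p = 0.357) did not pass. Without control replicate 1 they were -0.27, -0.30 and -0.11. Whether the changes of MSN2 and MSN4 differ from each other was not tested.

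RIM15 encodes the quiescence kinase. Its values were 10.27 and 10.08 at time zero, 9.82 and 9.50 after 1 h, 10.19 and 10.09 after 2 h, and 10.52 and 10.54 on the paired arrays of 4 h. Both 1 h arrays were lowest and both 4 h arrays highest. The log2 change at 1 h was -0.52 (SE 0.13, adjusted p = 0.0672) and that at 4 h was 0.35 (SE 0.16, adjusted p = 0.275), neither of which passed. RIM15 rose by 0.87 (SE 0.16, adjusted p = 0.0256), or 1.83-fold, between 1 h and 4 h.

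GIS1, the factor that acts downstream of Rim15, was nearly level. GIS1 lay at 13.05 and 12.92 at time zero, 12.95 and 12.98 after 1 h, 13.07 and 13.03 after 2 h, and 13.12 and 13.15 on the paired arrays of 4 h. The groups were within 0.15 of the control mean, and the 4 h value (adjusted p = 0.436) did not pass. XBP1, a transcriptional repressor induced by stress and in quiescent cells, had values of 11.73 and 11.05 at time zero, 10.77 and 11.07 after 1 h, 11.16 and 11.12 after 2 h, and 11.00 and 11.05 on the paired arrays of 4 h. Only control replicate 1 stood out, by 0.68 over control replicate 2, and the treated arrays lay around the second control. The XBP1 change of -0.47 (SE 0.22, adjusted p = 0.221) at 1 h did not pass, and leaving out control replicate 1 or 2 gave -0.13 or -0.81.

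**Figure D2:**
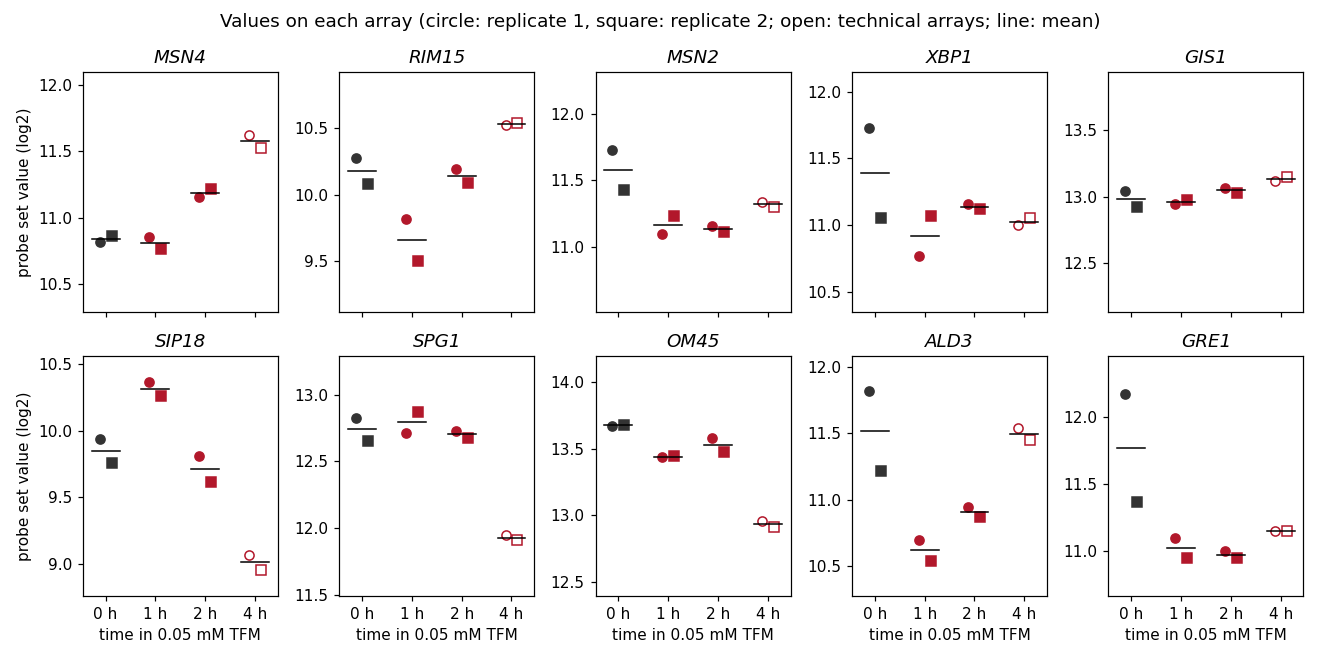
Probe set value on the log2 scale for 10 genes on each of the 8 arrays, against time in 0.05 mM TFM. Circles are replicate 1 and squares replicate 2, open symbols are the technical arrays of the 1 sample at 4 h, lines are means, and every panel spans the same range of log2 units. MSN4 is highest and SIP18, SPG1 and OM45 are lowest at 4 h, whereas GRE1, XBP1 and ALD3 have controls that lie apart.

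Of the 3 genes that fell at 4 h, OM45 encodes an abundant protein of the mitochondrial outer membrane. OM45 read 13.67 and 13.68 at time zero, 13.44 and 13.45 after 1 h, 13.58 and 13.47 after 2 h, and 12.96 and 12.91 on the paired arrays of 4 h. The 4 h arrays were below every other array, and the 1 h and 2 h arrays were below both controls. The log2 change was -0.23 (SE 0.08, adjusted p = 0.12) at 1 h, -0.15 (SE 0.08, adjusted p = 0.52) at 2 h and -0.74 (SE 0.09, adjusted p = 0.0171) at 4 h. Between 4 h and 1 h OM45 fell by 0.51 (SE 0.09, adjusted p = 0.0269).

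SPG1 is one of the genes that cells need to survive in stationary phase at high temperature. Its values were 12.83 and 12.66 at time zero, 12.72 and 12.87 after 1 h, 12.73 and 12.68 after 2 h, and 11.95 and 11.91 on the paired arrays of 4 h. The first 6 arrays overlapped and the 4 h arrays lay well below them. SPG1 fell by 0.81 (SE 0.12, adjusted p = 0.0255) at 4 h against control and by 0.87 (SE 0.12, adjusted p = 0.0137) at 4 h against 1 h. The difference between 4 h and 2 h was -0.77 (SE 0.12, adjusted p = 0.0521) and did not pass.

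The other genes named for stationary phase growth did not share this course. SPG3 ranged from 11.84 to 12.22 over the arrays, SPG4 from 13.78 to 14.03, and SPG5, a regulator of the proteasome in stationary phase, from 13.68 to 13.91. Their log2 changes at 4 h were -0.03, -0.04 and 0.13. SPG3 had its largest change at 2 h, 0.30 (SE 0.09, adjusted p = 0.298). At 1 h the 4 SPG genes lay between 0.02 and 0.13 above the controls, and 44.1% of all genes lay above them. Limma called 0 of the 4, against 4.99% of all genes, with 0 at an unadjusted p under 0.05, against 27.5%.

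SIP18 encodes a hydrophilin, a small protein made under osmotic stress and in drying cells. SIP18 read 9.94 and 9.76 at time zero, 10.36 and 10.26 after 1 h, 9.81 and 9.62 after 2 h, and 9.07 and 8.96 on the paired arrays of 4 h. It was highest on both 1 h arrays and lowest on both 4 h arrays, and the control and 2 h values overlapped. The log2 change of 0.47 (SE 0.11, adjusted p = 0.057) at 1 h did not pass. SIP18 fell by 0.60 (SE 0.11, adjusted p = 0.0443) from 1 h to 2 h and by 1.30 (SE 0.13, adjusted p = 0.00736) from 1 h to 4 h. Against the controls it fell by 0.83 (SE 0.13, adjusted p = 0.0285) at 4 h.

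SIP18 is also a dim probe set, with a mean below the 25th percentile of all probe sets (10.02). The 1321 genes below that line had a median change of 0.09 at 1 h, and 138 of them were called higher and 35 lower. Their median from 1 h to 2 h was -0.13, with 100 called lower and 0 higher, and from 1 h to 4 h it was -0.16 with 195 called lower and 29 higher. Their part in the SIP18 values was not tested. At 4 h against control their median was -0.05, with 46 called lower and 9 higher.

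GRE1 encodes the hydrophilin most like Sip18. GRE1 values were 12.18 and 11.37 at time zero, 11.10 and 10.94 after 1 h, 11.00 and 10.94 after 2 h, and 11.15 and 11.15 on the paired arrays of 4 h. Every treated array was below both controls, but the controls differed by 0.81, more than any other gene of the set. The log2 changes of -0.75 (SE 0.24, adjusted p = 0.115), -0.80 (SE 0.24, adjusted p = 0.283) and -0.62 (SE 0.30, adjusted p = 0.3) at 1, 2 and 4 h did not pass. They were -0.35, -0.39 and -0.22 without control replicate 1, and -1.16, -1.21 and -1.03 without control replicate 2.

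Of the other small stress proteins 5 had narrow ranges over the arrays. HSP12, a membrane-stabilising heat shock protein, ranged from 14.57 to 14.74. HOR7 had the narrowest range of the set, from 14.83 to 14.91, and its relative DDR2 ranged from 13.93 to 14.21. YGP1, a secreted glycoprotein, lay between 14.13 and 14.34, and TMA10, a ribosome-associated protein, between 14.14 and 14.38. At 4 h the log2 changes were 0.06 (HSP12), 0.04 (HOR7), -0.07 (DDR2), 0.15 (YGP1) and 0.22 (TMA10), none of which passed. DDR48, a DNA damage-responsive protein, ranged more widely, from 12.76 to 13.39, with a log2 change of 0.32 (adjusted p = 0.241) at 4 h against control and 0.46 (adjusted p = 0.0666) at 4 h against 1 h. The latter passed without 1 h replicate 1, with a trended prior and among genes at or above the 25th percentile.

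Many of these genes had bright probe sets. Of the 32 genes, 11 (34.4%) had a mean above the 95th percentile of all probe sets, as did 5.0% of all genes. The largest absolute log2 change among these 11 was 0.24, 0.23 and 0.24 at 1, 2 and 4 h. Limma called 0 of the 11 at each time. Of all 275 genes that bright it called 0 at 1 h, 0 at 2 h and 12 (4.36%) at 4 h, the largest change being 1.03 in size. Whether signal near the top of the range holds changes down was not tested. The highest probe set of each array lay between 14.91 and 15.01, next to the values of HOR7.

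The metabolic enzymes gave 0 calls in limma in any of the 7 tests, in which 0.11% to 11.7% of all genes were called. At an unadjusted p under 0.05 there were 0 to 3 of 7 (0.0% to 42.9%), against 12.1% to 33.4% of all genes. ALD3, a cytosolic aldehyde dehydrogenase induced by stress, moved most. ALD3 read 11.82 and 11.22 at time zero, 10.70 and 10.54 after 1 h, 10.94 and 10.87 after 2 h, and 11.54 and 11.45 on the paired arrays of 4 h. The 1 h and 2 h arrays lay below both controls, and the 4 h arrays lay between the controls. The log2 change was -0.89 (SE 0.19, adjusted p = 0.0522) at 1 h, -0.61 (SE 0.19, adjusted p = 0.294) at 2 h and -0.02 (SE 0.23, adjusted p = 0.974) at 4 h. The ALD3 difference from 1 h to 4 h was 0.87 (SE 0.23, adjusted p = 0.0582). The controls were 0.60 apart, and the 1 h change was -0.59 (adjusted p = 0.11) without control replicate 1 and -1.19 (adjusted p = 0.0073) without control replicate 2.

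ALD2 lies next to ALD3 on chromosome XIII and is a near-identical copy, so that signal shared between their probes cannot be told apart from these values. ALD2 ranged from 11.05 to 11.40, with log2 changes of -0.19, -0.08 and 0.07. ALD5, the mitochondrial enzyme of the family, had changes of 0.15, 0.09 and -0.05. GRE3, an aldose reductase, stood at -0.27 (adjusted p = 0.198) at 1 h, and SOL1, related to 6-phosphogluconolactonases, at -0.29 (adjusted p = 0.216). PNC1, a nicotinamidase, and GAD1, a glutamate decarboxylase, stayed within 0.14 and 0.23 of the controls. At 4 h against 1 h, 6 of the 7 enzymes (85.7%) were higher, against 52.8% of all genes. Their median log2 difference was 0.30, and that of all genes 0.02.

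The turnover genes also gave 0 calls in limma in any of the 7 tests, in which 0.11% to 11.7% of all genes were called. At an unadjusted p under 0.05 there were 0 of 5 at 1, 2 and 4 h against control. Over all genes the shares were 27.5%, 12.3% and 19.8%. At 4 h against 1 h there were 2 of 5 (40.0%, against 33.4% of all genes). The turnover genes are UBI4, the stress polyubiquitin gene, the protease inhibitors PAI3 and TFS1, DCS1, which clears cap remnants after mRNA decay, and its relative DCS2. At 4 h all 5 were higher than the controls, as were 49.4% of all genes. The 5 differences were 0.12 to 0.24 on the log2 scale with a median of 0.16, and none passed. DDR48, PAI3 and SIP18 are consecutive genes on chromosome XIII. Their log2 changes at 4 h were 0.32, 0.18 and -0.83, of which only that of SIP18 passed.

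The remaining organelle genes were RTN2, an endoplasmic reticulum reticulon, and MSC1, whose role is less clear. RTN2 ranged from 11.36 to 12.16, with a log2 change of -0.45 (adjusted p = 0.123) at 1 h and 0.56 (adjusted p = 0.0889) from 1 h to 4 h. MSC1 ranged from 13.09 to 13.62, with -0.32 (adjusted p = 0.148) at 1 h, and its controls were 0.32 apart. Together with OM45 all 3 organelle genes were below the controls at 1 h, as were 55.9% of all genes. All 3 had an unadjusted p under 0.05, as did 27.5% of all genes, and 0 passed in limma.

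Over the whole set, the 1 h means tended to be low and the 4 h means high, by small amounts. The median log2 change of the 32 genes was -0.08 at 1 h, -0.03 at 2 h and 0.07 at 4 h, against -0.03, -0.02 and -0.00 over all genes. At 1 h 22 of 32 (68.8%) were below the controls against 55.9% of all genes, and at 4 h 12 of 32 (37.5%) were, against 50.6%. The 1 h mean was the lowest of the 4 group means for 18 genes (56.2%, against 36.1% of all genes), which became 13 (40.6% against 28.2%) after median centring and 14 (43.8% against 37.0%) after quantile normalisation. The share below the controls at 1 h became 56.2% against 44.0% after centring and 59.4% against 53.6% after quantile normalisation. The 1 h, 2 h and 4 h means stood in rising order for 19 genes (59.4% against 33.7%), for 17 (53.1% against 30.1%) after centring, and for 18 (56.2% against 34.6%) after quantile normalisation. Genes of a stress programme are co-regulated and the groups share samples, so these counts describe the arrays and carry no test.

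**Figure D3:**
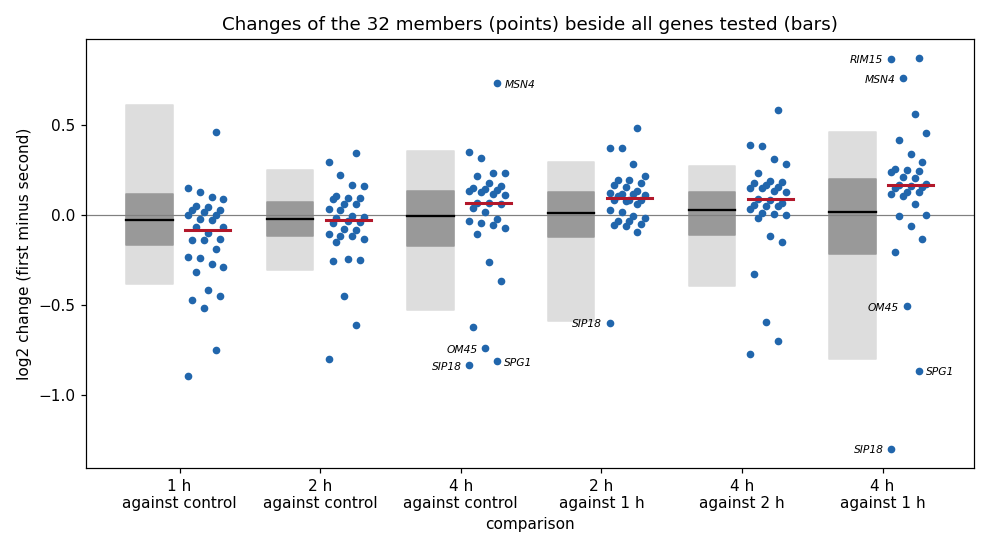
Log2 change of the 32 genes as points, with their median as a red line, beside the distribution over all 5449 genes, whose light bar spans the 5th to 95th percentile, dark bar the quartiles and black line the median, in 6 comparisons. Genes past the test are named. The median of the set is -0.08 at 1 h and 0.07 at 4 h against control, and 0.17 at 4 h against 1 h.

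In the comparisons between treated times, the control values enter only the shared estimate of spread. Limma called SIP18 alone from 1 h to 2 h, lower, with 4 genes (12.5%) at an unadjusted p under 0.05, against 22.3% of all genes. Over all genes 2.64% were called and 2.51% were called lower. From 2 h to 4 h it called 0 of 32, with 0.863% of all genes called, and 7 (21.9%) had an unadjusted p under 0.05, against 12.1% of all genes. The span from 1 h to 4 h gave calls in 5 of 32 (15.6%), against 11.7% of all genes. MSN4 and RIM15 were higher, where 3.19% of all genes were, and OM45, SIP18 and SPG1 lower, where 8.53% of all genes were. The median log2 difference from 1 h to 4 h was 0.17 for the set and 0.02 for all genes, and 25 of 32 genes (78.1%) were higher at 4 h against 52.8% of all genes. Without 1 h replicate 1 the counts of the set and of all genes at 4 h against 1 h both rose. Without either 2 h replicate both fell, and OM45, RIM15 and SPG1 no longer passed. The SIP18 call from 1 h to 2 h was lost without either replicate at 1 h or at 2 h, at adjusted p-values from 0.0547 to 0.261.

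The controls differed by more than 0.3 in 15.6% of the set and in 10.1% of all genes, and the median absolute difference was 0.09 and 0.10. Control replicate 1 exceeded replicate 2 by more than 0.3 in 5 of 32 genes (15.6%), GRE1, XBP1, ALD3, MSC1 and MSN2, against 3.9% of all genes. The opposite held for 0 of 32 and for 6.1% of all genes. Nevertheless 10 genes (31.2%, against 17.7% of all genes) had every 1 h and 2 h array below both controls. These were ALD3, DDR2, GRE1, GRE3, OM45, PNC1, RTN2, TFS1, MSN2 and MSC1. After median centring the count was 9, against 12.2% of all genes. For the 4 genes called at 4 h, the 4 h value minus control replicate 1 and minus control replicate 2 was 0.76 and 0.71 for MSN4, -0.74 and -0.74 for OM45, -0.92 and -0.74 for SIP18, and -0.90 and -0.73 for SPG1.

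**Figure D4:**
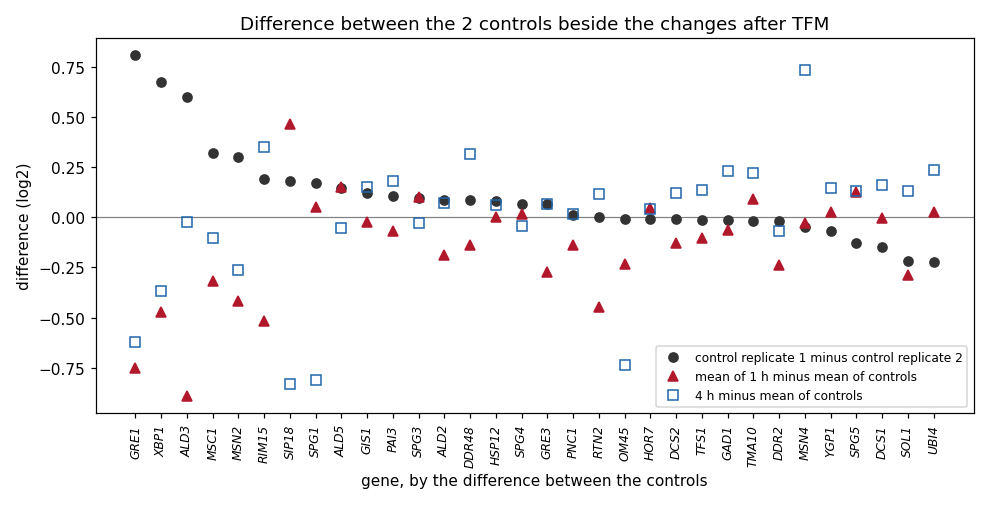
Log2 difference between the control replicates (black circles), change at 1 h (red triangles) and change at 4 h (blue open squares) for each of the 32 genes, in order of the difference between controls. GRE1, XBP1 and ALD3, at the left, have control differences of 0.81, 0.68 and 0.60, whereas the 4 genes called at 4 h have controls within 0.18 of each other.

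Other genes of the pathway, from lists chosen by their known roles but with earlier results of these data known, gave the surroundings of the set. Of 26 other signalling and regulatory genes measured around Msn2, Msn4 and Rim15, limma called 2 at 1 h (7.69%, against 4.99% of all genes). RAS1, a GTPase that activates adenylate cyclase, rose by 1.03 (SE 0.14, adjusted p = 0.0262), and PSR2, a phosphatase linked to Msn2 activation, fell by 0.56 (adjusted p = 0.0421). At 2 h and at 4 h 0 of 26 were called, with 5 (19.2%, against 12.3% of all genes) and 8 (30.8%, against 19.8%) at an unadjusted p under 0.05. From 1 h to 4 h limma called 4 of 26 (15.4%, against 11.7% of all genes). CYR1, the adenylate cyclase, rose over this span by 0.85 (adjusted p = 0.0173), and IRA1 and IRA2, which switch Ras off, rose by 0.60 (adjusted p = 0.0221) and 0.39 (adjusted p = 0.0426). RAS1 fell by 0.81 (adjusted p = 0.0339) over the same span. Like SIP18, RAS1 lay below the line for dim probe sets. Of the 1321 genes below that line, 138 were called higher and 35 lower at 1 h. From 1 h to 4 h, 195 of them were called lower and 29 higher. Their part in the RAS1 values was not tested.

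Of 27 other targets of the general stress response, 2 fell at 1 h (7.41%, against 4.99% of all genes). At 2 h limma called 0, against 0.11% of all genes, and 3 (11.1%, against 12.3%) had an unadjusted p under 0.05. At 4 h 1 fell (3.7%, against 4.46%). The gene called at 4 h was GPD1, a glycerol synthesis enzyme, at -0.94 (adjusted p = 0.0411). From 1 h to 4 h limma called 2 of 27 (7.41%, against 11.7% of all genes). GPH1, glycogen phosphorylase, rose by 0.47 (adjusted p = 0.0278) and HSP78, a mitochondrial chaperone, by 0.40 (adjusted p = 0.0401). The median log2 change of these targets was -0.06 at 1 h, with 21 of 27 below the controls (77.8%, against 55.9% of all genes), and 0.12 at 4 h, with 21 of 27 above them (77.8%, against 49.4%).

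The list of other stationary phase genes was also chosen with earlier results of these data known, so its shares carry no test. Of 6 genes measured, 3 fell at 1 h (50.0%), against 4.99% of all genes. At 2 h 1 fell (16.7%, against 0.11%) and at 4 h 3 fell (50.0%, against 4.46%). Those called at 4 h were FMP45, an eisosome-associated membrane protein, at -1.38 (adjusted p = 0.0414), and SNZ1 and SNO1, which act in vitamin B6 synthesis, at -0.69 (adjusted p = 0.0242) and -0.66 (adjusted p = 0.0447). SNO1 also lay below the line for dim probe sets. At 4 h against control, 46 of the genes below that line were called lower and 9 higher. Their part in the SNO1 value was not tested. In size, the FMP45 change exceeded that of every gene of the set at 4 h, the largest of which was -0.83 for SIP18. Every call at 1, 2 or 4 h against control in these 3 pathway lists was lost without control replicate 1. Every one but FMP45 at 2 h was lost when only the groups compared were fitted. The calls from 1 h to 4 h passed under 7 to 13 of 14 or 15 alternatives, the fewest for IRA2. All of them were lost without either 2 h replicate, and all but that of CYR1 when only the groups compared were fitted.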

How the data were processed

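Messenger RNA was measured on 8 one-colour Affymetrix arrays from 7 RNA samples. The deposited values are log2 probe set summaries, made by the authors with RMA per the submitters' processing notes. The log base is judged from the range of values, and no genome build was used. RMA brings arrays to a shared distribution, so that a loss or gain of mRNA in every gene would be hidden.

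Of 5814 probe sets, 5498 carried 1 gene, 0 several and 316 none in the platform annotation, and 12 symbols were updated from a RefSeq gene table. Where a gene had several probe sets (47 genes), that of highest mean stood for it, leaving 5449 genes. The technical arrays at 4 h were averaged. The fit used limma 3.58.1 under R 4.3.3 (lmFit and eBayes, 1 mean per group, 3 residual and 3.36 prior degrees of freedom, prior SD 0.0958), with Benjamini-Hochberg adjustment over all genes within each test. The script was tested on simulated data. Errors on changes are limma's standard errors. Arrays have no read depth, so the number of arrays limits the precision.

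The members, role groups and pathway lists were chosen with earlier results of these data known. A gene was given array by array if it passed any of the 7 tests, was a regulator, or was among the 3 largest changes at 1, 2 or 4 h. The main fit did not pair samples by replicate number. Correlations of the replicate differences across genes were 0.0959, 0.190 and 0.0333. Each rests on 1 difference per group, so they cannot exclude pairing. Alternatives were other normalizations, a filter on dim genes, a trended prior, the mean of a gene's probe sets, a replicate block, fits of the compared groups alone, and leaving out each array. No promoter or protein sequence was used here.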

Additional observations from a re-analysis of the deposited data

Results flagged for a closer look

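The changes of 5 genes against control differed between times by the test of the difference itself in limma. SIP18 differed between 2 h and 1 h by -0.60. Between 4 h and 1 h the differences were -1.30 for SIP18, -0.87 for SPG1, -0.51 for OM45, 0.87 for RIM15 and 0.76 for MSN4 on the log2 scale. Those at 4 h rest on 1 RNA sample. The ribosomal RNA control probe sets, which entered no comparison of genes, had a median 2.27 higher on the 4 h arrays than in the controls, and this difference was not tested.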

How the results depend on the processing

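Counts of the 32 genes called by limma moved as given below, and the cause was not tested. Counts over all genes moved too. From 2 h to 4 h, 47 became 91 with the filter, 108 with a trended prior and 647 with only the groups compared. At 4 h, 243 became 1 with only the groups compared. From 1 h to 4 h, 639 became 933 with a trended prior. At 1 h, 272 became 302 with centring, 349 with quantile normalisation, 386 with a trended prior and 119 with the filter. From 1 h to 2 h, 144 became 155 with quantile normalisation and 42 with the filter. At 1 h the count of 0 became 1 with centring, 1 with quantile normalisation, 1 among genes at or above the 25th percentile, 2 with a trended prior and 3 with the replicate block, and leaving out 1 array gave 0 to 4 (4 without control replicate 2 or without 1 h replicate 1). At 2 h leave-one-out counts were 0 to 1. At 4 h the count of 4 became 0 when only the groups compared were fitted, and leaving out 1 array gave 0 to 4 (0 without control replicate 1 or without either 2 h replicate). From 1 h to 2 h the count of 1 became 0 with quantile normalisation, 0 with the filter on dim genes, which leaves SIP18 untested, and 2 with the replicate block, and leave-one-out gave 0 to 3. From 2 h to 4 h the count of 0 became 2 with the filter, 2 with a trended prior and 9 with only the groups compared, and leave-one-out gave 0 to 1. From 1 h to 4 h the count of 5 became 10 with a trended prior, and leave-one-out gave 2 to 9. For the F test leave-one-out gave 0 to 8. Of 1434 recomputed changes of single genes against control, 18 gained the call, 19 lost it and 0 called ones reversed. A further 10 uncalled ones changed direction by more than the error. The other 1387 kept their side of the threshold, and they include uncalled ones that changed direction by no more than the error. Of 1434 recomputed differences between treated times, 34 gained the call and 13 lost it. The alternatives were applied to the pathway genes after seeing the data. The main fit did not pair samples by replicate number, and the replicate block changed no other count of the 32 genes by more than 1.5 times. Over all genes the block took the count from 272 to 494 at 1 h, and from 144 to 301 for 2 h against 1 h.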

Other observations

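The neighbouring pair GAD1 and HOR7, with 1 annotated gene between them, had log2 changes of 0.23 and 0.04 at 4 h, and limma called neither. In 18 of the 32 genes (56.2%) the 8 arrays spanned less than 0.5 on the log2 scale, close to the 62.4% of all genes.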
